A study of Mus musculus with 8 samples.

Results

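The receptors of the Trem cluster and their signalling adaptor Tyrobp were followed through acetylation of histone H4 in macrophages. The 6 genes, of 21887 protein-coding genes in the annotation, were taken by symbol: Trem1, Trem3, Treml4, Treml2 and Trem2, which lie in this order on chromosome 17, and Tyrobp on chromosome 7. Another protein-coding gene, B430306N03Rik, lies between Treml2 and Trem2. Bone-marrow-derived macrophages of C57BL/6 mice were left untreated, stimulated with PAM3 (PAM3CSK4, a lipopeptide made after those of bacteria and detected by the receptor TLR2), treated with 25HC (25-hydroxycholesterol, an oxidised form of cholesterol), or treated with 25HC before PAM3 (called 25HC then PAM3). A group was 2 libraries, 1 from mouse A and 1 from mouse B, so 8 libraries made up the 4 groups, all of 1 strain with no genetic change named. The stimulation time in the labels, which carries no unit, is 18 in every library with PAM3 and 0 in every other, so PAM3 and time cannot be told apart. Neither the dose nor the duration of 25HC is stated in the labels.

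TREM receptors are single-pass members of the immunoglobulin superfamily on myeloid cells. Most have almost no signalling tail of their own. They pair in the membrane with DAP12, the adaptor encoded by Tyrobp, whose tyrosine motif recruits the kinase Syk. TREM-1 is known for amplifying inflammatory signals from Toll-like receptors, whereas TREM-2 binds lipids, lipoproteins and apoptotic cells and is known for restraining inflammatory output and for sustaining lipid-handling macrophages and microglia. Acetylated H4 marks active promoters and enhancers.

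RefSeq promoter sequences were at hand for 3 of the 6 genes, Trem1, Treml4 and Trem2, all on the plus strand of GRCm38.p6. They are shown because these stretches lie under the peaks described below, and because the Trem1 stretch was the one of the 3 whose peak coverage differed between libraries. The printed bases end just before the annotated lower end of each gene, 5′ to 3′, and capitals mark motif matches. The stretches are chr17:48232489-48232712 for Trem1, chr17:48264045-48264199 for Treml4 and chr17:48346151-48346400 for Trem2.
Trem1: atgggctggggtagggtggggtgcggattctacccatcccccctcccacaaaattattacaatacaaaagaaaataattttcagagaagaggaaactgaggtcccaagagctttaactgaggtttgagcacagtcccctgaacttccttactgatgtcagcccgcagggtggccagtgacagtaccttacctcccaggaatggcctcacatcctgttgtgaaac
Treml4: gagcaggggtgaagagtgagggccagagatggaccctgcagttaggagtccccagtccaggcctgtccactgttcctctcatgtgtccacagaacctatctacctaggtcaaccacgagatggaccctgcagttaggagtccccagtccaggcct
Trem2: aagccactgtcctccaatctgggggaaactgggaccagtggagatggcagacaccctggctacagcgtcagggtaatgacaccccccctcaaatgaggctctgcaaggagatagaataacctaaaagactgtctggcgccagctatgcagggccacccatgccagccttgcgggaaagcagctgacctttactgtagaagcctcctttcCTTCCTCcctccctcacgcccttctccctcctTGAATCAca
In Trem2 the capitals mark the letters GAGGAAG of a PU.1 motif read on the opposite strand, which begin 41 bases before the lower end of the gene, and a match to the AP-1 letters TGANTCA, which begins 9 bases before it. PU.1 is the lineage factor of macrophages and AP-1 a family of stimulus-responsive factors. The 7 motifs were searched on both strands of the whole 300 bp windows. The PU.1 letters were present in 13.6% and the AP-1 letters in 7.81% of 32851 RefSeq promoter windows of that length. A further match, to the C/EBP letters TTGCNNAA (10.8% of windows), lay past the gene's lower end in the Trem2 window. No match was found in these windows for the E-box CACGTG (7.15%) or for patterns of NF-κB (4.79%), IRF (3.44%) and the LXR direct repeat (0.0152%). The Treml4 and Trem2 windows were covered by peaks over all 300 bp in every library. The Trem1 window was covered over 205 bp and 0 bp in the untreated libraries, 31 bp and 300 bp with PAM3, and 300 bp in the 4 libraries given 25HC with or without PAM3 (mouse A before mouse B here and in every series of values below).

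Each deposited peak list held 48446 to 54552 peaks that covered 56.6 Mb (PAM3, mouse A) to 72.4 Mb (PAM3, mouse B). The lists carry no read counts, so the depth behind a peak is unknown. The measure used was called length, the bp of deposited peaks inside a window of the gene body plus 5 kb at each end, and a longer called length does not by itself measure how strongly the histone was acetylated. Peak lengths repeated between libraries of a group (Spearman's rho of 0.882 to 0.919 over matched peaks), but the deposited fold and −log10 q of those peaks hardly did (0.103 to 0.203 and 0.087 to 0.171), so peaks are described by position and length alone. Macrophage markers matched the label: 10 of 10, Csf1r and Adgre1 among them, were called in all 8 libraries, with 68638 to 104002 bp in sum (75054 to 104002 bp with PAM3 and 68638 to 81824 bp without). Neutrophil markers were called throughout in 4 of 10 cases (12283 to 16234 bp in sum; 12283 to 13988 bp with PAM3 and 13067 to 16234 bp without) with S100a9, Ly6g, Ngp and Cxcr2 at 0 in all 8 libraries, and lymphocyte markers in 2 of 10 (4701 to 9319 bp; 4701 to 6750 bp with PAM3 and 6338 to 9319 bp without) with Cd3e, Pax5, Ncr1, Cd8a and Bcl11b at 0. Dendritic cell markers were called throughout in 7 of 10 (54026 to 74652 bp; 54026 to 73766 bp with PAM3 and 66011 to 74652 bp without) with Cd209a at 0. Whether these levels bear on the receptor genes was not tested. In bulk chromatin, fewer cells with the mark and less of it per cell cannot be told apart.

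Trem1 was the only member whose called length passed the limma test for a rise with PAM3, both without and after 25HC. Its called length was 1569 and 708 bp in untreated macrophages, 3302 and 4251 bp with PAM3, 1875 and 2008 bp with 25HC, and 5760 and 6291 bp with 25HC then PAM3. All 4 libraries with PAM3 lay above all 4 without it, and the pair that had also received 25HC was the highest. How often a pair lies beyond all other libraries, here and below, was not computed over all genes or regions. Group means were 1138.5 ± 609 bp (SD, n = 2) untreated, 3776.5 ± 671 bp with PAM3, 1941.5 ± 94 bp with 25HC and 6025.5 ± 375 bp with both.

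Averaged over both backgrounds, the PAM3 effect on Trem1 was 1.43 on the log2 scale (SE 0.17, limma adjusted p = 0.00925, 4 libraries against 4). All log2 values compare called bp after adding 500 bp. Trem1 was the 1 member of 6 called, where 11.8% of the 14589 genes tested were called and 5.94% rose. It was likewise the 1 member whose 4 PAM3 libraries lay above the other 4, as 7.11% of all tested genes did, and no member lay wholly below (9.66% of genes). Within each background the log2 rise was 1.47 without 25HC (SE 0.24, limma adjusted p = 0.0382; 1 of 6 members, where 3.87% of genes were called and 1.89% rose) and 1.39 after it (SE 0.24, limma adjusted p = 0.0385; 1 of 6 members, where 5.02% were called and 2.73% rose). The rise held in both mice, by 1733 and 3543 bp without 25HC and by 3885 and 4283 bp after it.

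Fitted with the mouse as a block, the average effect kept its call (limma adjusted p = 0.0227) but the rises within each background did not (0.0732 without 25HC and 0.0684 after it). The average effect also kept its call without any single library (limma adjusted p of 0.00921 to 0.0404). The rise without 25HC lost its call without PAM3 A (0.0760), PAM3 B (0.121), 25HC A (0.0808), 25HC B (0.0813), 25HC then PAM3 A (0.0707) or 25HC then PAM3 B (0.0716), as limma adjusted p. The rise after 25HC lost it without PAM3 A (0.0609), PAM3 B (0.0610), 25HC A (0.141), 25HC B (0.152), 25HC then PAM3 A (0.104) or 25HC then PAM3 B (0.122). Over all alternatives the calls held in 20 of 23 for the average effect, 7 of 24 without 25HC and 9 of 24 after it. These tallies include 2 settings added after seeing the data. They kept only peaks of at least 500 bp, or the longest peaks to the same covered length, and each of these calls held in both. In peaks with a deposited −log10 q of 5 or more the average turned to −1.14 (limma adjusted p = 0.442). The deposited −log10 q hardly repeats between libraries, and whether this bears on the change was not tested.

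**Figure D1:**
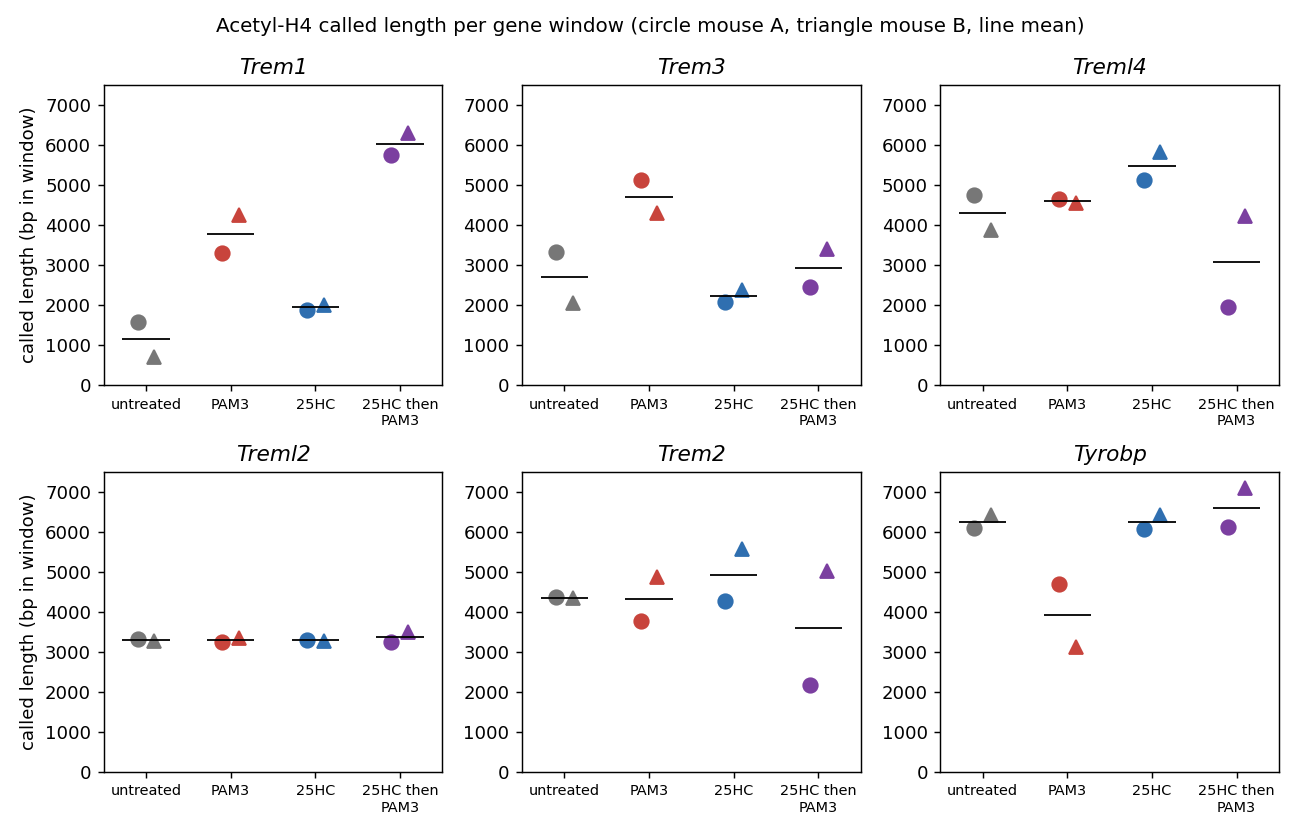
Called length (bp of deposited acetyl-H4 peaks in the gene body plus 5 kb at each end) of the 6 genes in each library, by group; circles are mouse A, triangles mouse B and lines the group mean of 2 libraries. Trem1 runs from 708 bp in an untreated library to 6291 bp after 25HC then PAM3, Treml2 stays between 3232 and 3497 bp, and Tyrobp is lowest in the PAM3 pair.

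No member passed the test for 25HC. For Trem1 the log2 difference of 25HC from untreated was 0.69 (SE 0.24, limma adjusted p = 0.985), and that of 25HC then PAM3 from PAM3 was 0.61 (SE 0.24, limma adjusted p = 0.326). In these comparisons 0.0343% and 1.3% of the genes tested were called. No member had all 4 libraries with 25HC above the 4 without (1.03% of genes) or below them (1.89%). Both mice were higher with 25HC in both settings, by 306 and 1300 bp at rest and by 2458 and 2040 bp with PAM3. The average effect of 25HC on Trem1 was 0.65 (SE 0.17, limma adjusted p = 0.228; 0 members and 0.0685% of genes called). The PAM3 rise of Trem1 after 25HC differed from that without it by −0.08 on the log2 scale (95% interval −0.92 to 0.76, limma adjusted p = 0.970). For that difference of responses limma called 0 of the 14589 genes, with 1438 at an unadjusted p under 0.05.

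The differences at Trem1 lay in 2 places. At the lower end of the gene, where the promoter printed above ends, peaks covered 625 and 0 bp in untreated libraries, 800 and 2522 bp with PAM3, 969 and 1158 bp with 25HC, and 3882 and 4509 bp with 25HC then PAM3. In the last group 1 unbroken peak ran from −2.13 to 1.75 kb of the lower end in mouse A, and from −2.12 to 2.39 kb in mouse B, where negative distances lie before the gene. The 25HC peaks ended 0.1 and 0.41 kb past the lower end, and the PAM3 peak of mouse A lay just inside the gene, from 0.04 to 0.84 kb. Both libraries with 25HC then PAM3 lay above both with 25HC here, as in 24.7% of 69721 merged peak regions of the genome. PAM3 lay above untreated (16.1% of 72170 regions), and 25HC above untreated (9.3% of 64318 regions).

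The other place spans the gap between Trem1 and Trem3, chr17:48246794-48249525, over the upper end of one gene and the lower end of the next. It was called over 944 and 708 bp untreated, 2502 and 1729 bp with PAM3, 906 and 850 bp with 25HC, and 1878 and 1782 bp with 25HC then PAM3. It was the 1 region of 16 in the cluster in which the 4 PAM3 libraries lay above the 4 others (5.38% of 83299 merged regions in the genome). The extension ran inward into Trem3: the 1 kb bin chr17:48248001-48249000 was covered over 1000 and 646 bp with PAM3 and 671 and 682 bp with 25HC then PAM3, against 0 and 0 bp untreated and 0 and 57 bp with 25HC. This was the 1 member bin of 27 gained with PAM3 (6.15% of 98330 bins genome-wide), with 0 of 27 lost (8.25%). After 25HC it was 1 of 3 gained of 31 (10.7% of bins), beside the 2 at the lower end of Trem1, chr17:48231001-48232000 and chr17:48233001-48234000. Because the windows of neighbouring genes overlap, this region counts toward both Trem1 and Trem3.

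**Figure D2:**
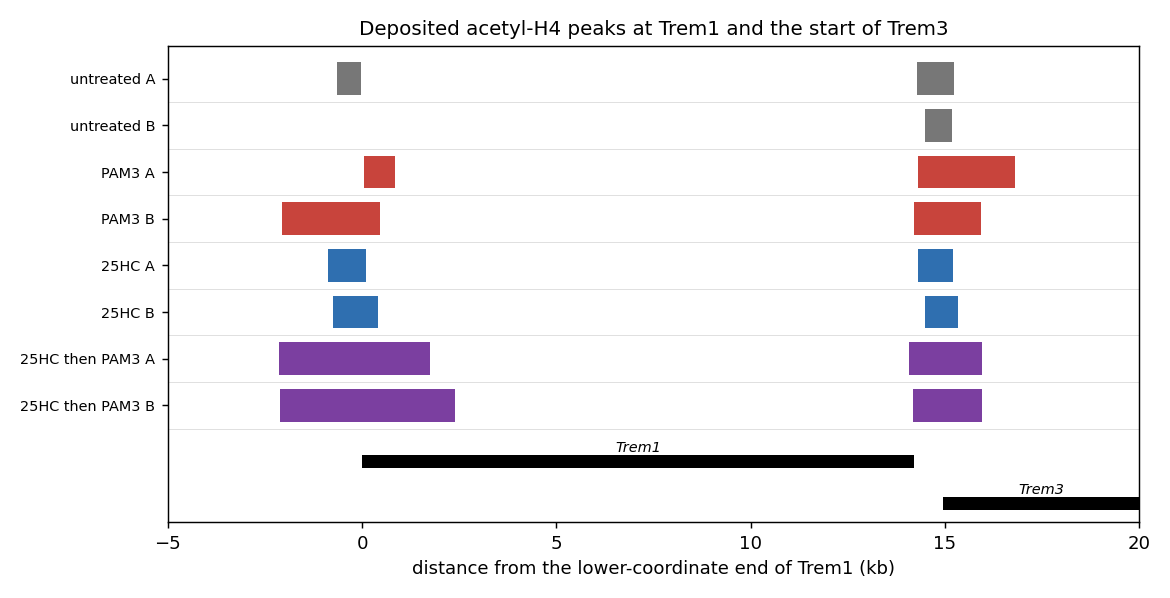
Deposited peaks around Trem1 in the 8 libraries; the horizontal axis is the distance in kb from the lower-coordinate end of Trem1, each row is 1 library, colored bars are peaks and black bars are gene bodies. The peak at the lower end reaches 1.75 and 2.39 kb into the gene after 25HC then PAM3, and the peak before Trem3 is wider in the 4 PAM3 libraries.

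Trem3 encodes a DAP12-paired receptor that is functional in the mouse and a pseudogene in humans. Its called length was 3324 and 2056 bp untreated, 5116 and 4306 bp with PAM3, 2068 and 2387 bp with 25HC, and 2442 and 3404 bp with 25HC then PAM3. The PAM3 pair was the highest, above all 6 other libraries, a separation whose share over all genes was not computed. The log2 difference with PAM3 was 0.78 without 25HC (limma adjusted p = 0.165), 0.29 after 25HC (0.585) and 0.54 on average (SE 0.18, 0.115), so none passed. On average over both backgrounds it passed with windows of 2 kb on either side (limma adjusted p = 0.0276) and with the gene body alone (0.0279). 25HC then PAM3 lay below PAM3 in both mice, with differences of −2674 and −902 bp, a log2 difference of −0.63 (limma adjusted p = 0.327).

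The region shared by Trem3 and Treml4, chr17:48261235-48264822, covers the lower end of Treml4. It was called over 3588 and 3439 bp with PAM3 and 3112 and 2199 bp untreated, against 1777 and 2208 bp with 25HC and 1354 and 2448 bp with 25HC then PAM3. With PAM3 alone it was 1 unbroken peak in both mice, untreated it was unbroken in mouse A and split into 2 in mouse B, and in all 4 libraries with 25HC it was split into 2. The bin chr17:48262001-48263000 was covered over 1000 bp in both PAM3 libraries and over 0 and 396 bp with 25HC then PAM3.

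Treml4 encodes a receptor that binds dead cells and is known for enhancing signalling by the nucleic-acid sensor TLR7. Its called length was 4739 and 3867 bp untreated, 4652 and 4542 bp with PAM3, 5136 and 5835 bp with 25HC, and 1949 and 4218 bp with 25HC then PAM3. 25HC gave the highest pair, above all 6 other libraries, a separation whose share over all genes was not computed. In the last group 1 library was the lowest. The log2 difference of 25HC then PAM3 from 25HC was −0.84 (SE 0.29, limma adjusted p = 0.170), which did not pass. It passed without the library 25HC then PAM3 B (−1.27, limma adjusted p = 0.0487), the higher of its pair. 25HC against untreated gave 0.38 (limma adjusted p = 1.0), and the difference of the PAM3 responses −0.98 (limma adjusted p = 0.527).

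Besides the region at its lower end, the Treml4 window held 3 others that varied between groups. An internal peak at chr17:48269622-48270314 was called over 515 and 577 bp with 25HC and 0 and 693 bp with 25HC then PAM3, and over 0 bp in the 4 libraries without 25HC. At chr17:48274458-48276407, over the upper end, the 25HC pair had 1720 and 1732 bp, against 460 and 532 bp untreated, 361 and 0 bp with PAM3 and 0 and 473 bp with both. The 1 kb bin at chr17:48275001-48276000 was fully covered in both 25HC libraries and covered over 0 bp in all 4 PAM3 libraries. It was the 1 member bin of 26 gained with 25HC (1.75% of 86587 bins genome-wide, with 0 of 26 lost, 3.68%), and 1 of 2 member bins of 31 lost with PAM3 after 25HC (7.71% of 96970 bins). Past the gene, the peak at chr17:48277862-48279286 had 595 to 1103 bp in the PAM3 libraries and 1124 to 1318 bp in the others, 1 of 2 regions of the cluster with all PAM3 libraries below the rest (7.83% of regions genome-wide). The other, chr17:48335521-48338068 between B430306N03Rik and Trem2, had 1780 to 1937 bp with PAM3 and 2100 to 2462 bp without. Between PAM3 and 25HC then PAM3, the Treml4 total differed mainly at the lower-end region described with Trem3.

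**Figure D3:**
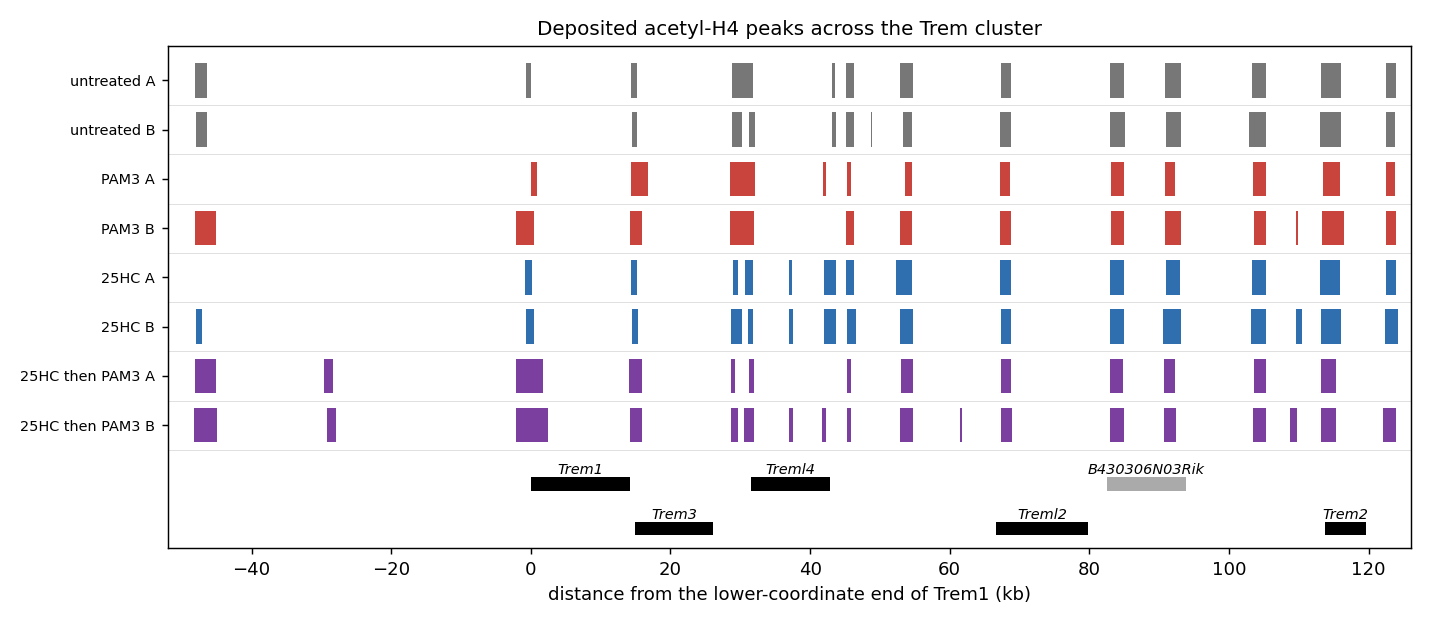
All deposited peaks across the Trem cluster and the 50 kb before it, by library; the horizontal axis is the distance in kb from the lower-coordinate end of Trem1, colored bars are peaks, black bars the bodies of the 5 Trem genes and the grey bar B430306N03Rik. Of 16 merged regions in the cluster 9 are called in all 8 libraries, as are 24793 of 83299 genome-wide.

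Treml2, whose receptor carries its own signalling tail and is found on lymphocytes as well as macrophages, had the narrowest range of called length among the members. Its 8 libraries held 3232 to 3497 bp, with a median of 3283.5 bp. The average effect of PAM3 was 0.03 on the log2 scale (SE 0.07, limma adjusted p = 0.854), with a 95% interval of −0.15 to 0.21. Its peak inside the gene, chr17:48299960-48301612, was called over 1441 to 1597 bp, and the one at chr17:48315699-48317795, in the neighbouring gene B430306N03Rik, over 1794 to 2065 bp.

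Trem2 kept a peak over its start in every library. The called length of its window was 4360 and 4336 bp untreated, 3758 and 4856 bp with PAM3, 4258 and 5576 bp with 25HC, and 2161 and 5012 bp with 25HC then PAM3. The groups overlapped. The average effect of PAM3 was −0.24 (SE 0.22, limma adjusted p = 0.536), and 25HC then PAM3 against 25HC gave −0.51 (SE 0.31, limma adjusted p = 0.428). The peak over the promoter printed above, chr17:48345799-48349117, was called over 2915 and 2973 bp untreated, 2455 and 3087 bp with PAM3, and 2814 and 2939 bp with 25HC. With 25HC then PAM3 it was shorter, at 2161 and 2142 bp, below the 6 other libraries.

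The shortening lay inside the gene. The bin chr17:48348001-48349000 was covered over 77 and 45 bp with 25HC then PAM3, and over 581 to 1000 bp in the 6 others. It counted as lost both against 25HC (2 of 31 member bins, 7.71% of bins genome-wide) and against PAM3 (2 of 31, 4.71%). Both libraries of the last group lay below both with 25HC over the whole region, as in 21.9% of merged regions, and below both with PAM3 (15.9%). The low total of mouse A after 25HC then PAM3 went with this shorter peak and with 2 other regions at 0 bp there. A peak past Trem2, chr17:48354829-48356858, had 1303 to 1827 bp in the 7 other libraries. A peak before it, chr17:48341476-48343224, was called in 3 libraries, over 275 bp in PAM3 B, 889 bp in 25HC B and 1043 bp in 25HC then PAM3 B. In 25HC then PAM3 A, 171 of 14589 gene windows were at 0 while called in the 7 others, within a range of 65 to 250 over the libraries. The part of such missing peaks in the Trem2 and Treml4 values was not tested.

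Over all 8 libraries, Tyrobp had the largest median share of its window called. The median library covered 44.2% of it, against 27.4% for Trem2, 21.5% for Treml4, 14.2% for Treml2, 13.6% for Trem3 and 11% for Trem1, and a median of 8.27% over all genes tested. These shares depend on the window, which ran from 13801 bp for Tyrobp to 24215 bp for Trem1. The Tyrobp window also held peaks over the neighbouring genes Hcst and Nfkbid. The ranges of neighbours in the order of the medians overlapped. They ran from 22.6 to 51.3% for Tyrobp, 13.6 to 35.1% for Trem2, 9.1 to 27.3% for Treml4, 14 to 15.1% for Treml2, 9.71 to 24.2% for Trem3 and 2.92 to 26.0% for Trem1. The order differed between groups. The mean share of Trem1 was 4.7% untreated, 15.6% with PAM3, 8.02% with 25HC and 24.9% with both, where it lay above Trem2 at 22.6%. With PAM3 the means of Tyrobp and Trem2 were 28.3% and 27.1%.

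The called length at Tyrobp was 6093 and 6410 bp untreated, 4704 and 3115 bp with PAM3, 6056 and 6423 bp with 25HC, and 6112 and 7086 bp with 25HC then PAM3. The PAM3 pair was the lowest, below all 6 other libraries, which overlapped. The share of all genes with such a pair was not computed. The log2 difference was −0.59 for PAM3 against untreated (SE 0.24, limma adjusted p = 0.259) and 0.70 for 25HC then PAM3 against PAM3 (SE 0.24, limma adjusted p = 0.253), neither of which passed. The PAM3 responses with and without 25HC differed by 0.64 (limma adjusted p = 0.626), and the average effect of PAM3 was −0.27 (SE 0.17, limma adjusted p = 0.375). These values depended on which PAM3 library was kept. Without PAM3 A the first was −0.96 (limma adjusted p = 0.0236), the second 1.07 (0.0225) and the average effect −0.46 (0.0269). Without PAM3 B they were −0.22 (0.421), 0.33 (0.275) and −0.09 (0.537).

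**Figure D4:**
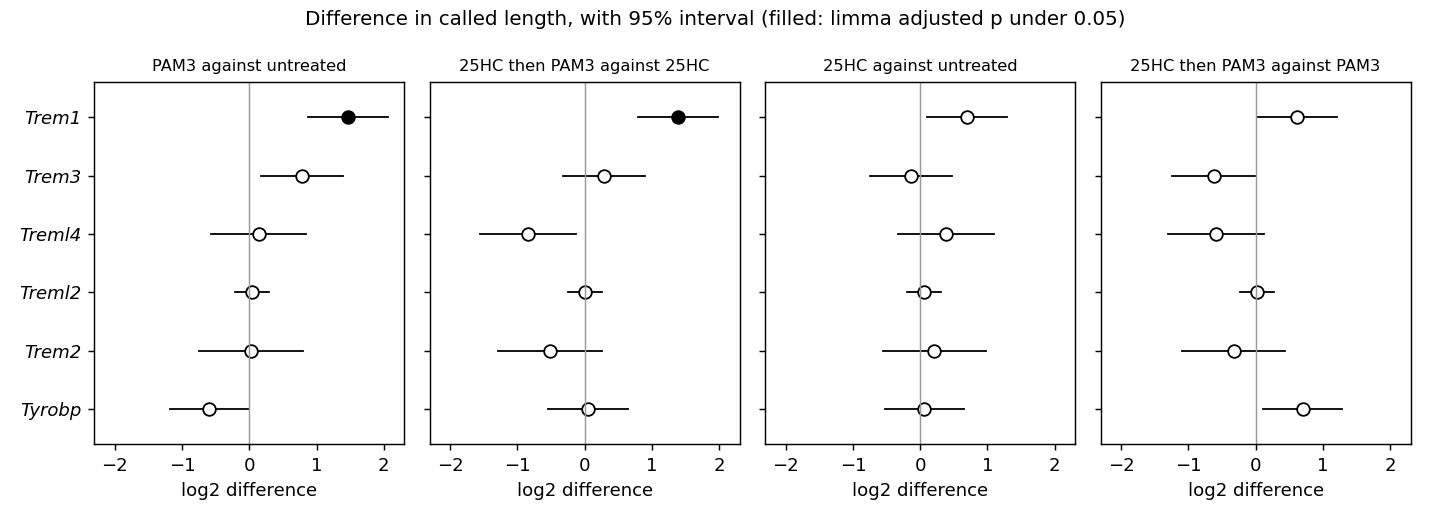
Log2 difference in called length for the 6 genes in the 4 pairwise comparisons, with 95% intervals from limma; filled circles mark an adjusted p under 0.05. The filled circles are Trem1 with PAM3 (1.47) and Trem1 with 25HC then PAM3 against 25HC (1.39), and Tyrobp lies at −0.59 and 0.70 in the 2 comparisons that involve the PAM3 pair alone.

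The peak over the start of Tyrobp, chr7:30411844-30414711, was called in every library, over 2823 and 2800 bp untreated, 2098 and 2771 bp with PAM3, 2522 and 2754 bp with 25HC, and 2444 and 2343 bp with 25HC then PAM3. The wider spread came from the other side, chr7:30417813-30423584, over Hcst, the gene of the sister adaptor DAP10, and the start of Nfkbid, an NF-κB regulator. Over that whole region, which runs past the Tyrobp window, peaks held 4272 and 4609 bp untreated, 3572 and 1345 bp with PAM3, 4487 and 4662 bp with 25HC, and 4652 and 5697 bp with both. The 1 member bin gained with 25HC then PAM3 against PAM3 (of 31; 6.48% genome-wide) was here, at chr7:30421001-30422000. PAM3 B lacked the Hcst peak that the 7 other libraries had. That library also had the most gene windows, 250 of 14589, at 0 while called in the 7 others, and the part of this in the Tyrobp values was not tested. Hcst itself followed Tyrobp, with 6227 and 6553 bp untreated, 5069 and 3291 bp with PAM3, 6289 and 6662 bp with 25HC, and 6491 and 7446 bp with both, since the 2 windows share these peaks.

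**Figure D5:**
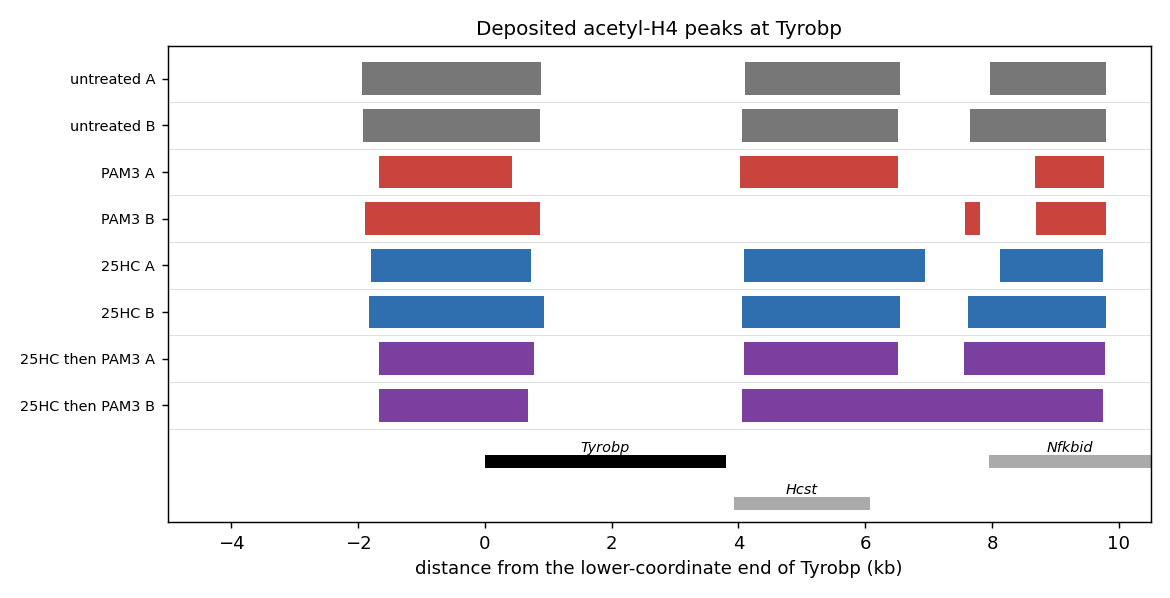
Deposited peaks around Tyrobp in the 8 libraries; the horizontal axis is the distance in kb from the lower-coordinate end of Tyrobp, colored bars are peaks, the black bar is Tyrobp and grey bars are Hcst and Nfkbid. The peak over the start of Tyrobp is present in all 8 libraries, and the PAM3 library of mouse B lacks the peak over Hcst.

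Summed over the whole cluster, chr17:48227713-48357276, called length did not separate the groups. It was 20334 and 18643 bp untreated, 19342 and 22956 bp with PAM3, 21125 and 23357 bp with 25HC, and 18203 and 24769 bp with 25HC then PAM3. With PAM3 it was 21317.5 ± 3070 bp (SD, n = 4) and without 20864.75 ± 1960 bp (two-sided exact permutation test, p = 0.857, 0.857 adjusted over 2 comparisons). With 25HC it was 21863.5 ± 2860 bp and without 20318.75 ± 1890 bp (two-sided exact permutation test, n = 4, p = 0.4, 0.8 adjusted). The smallest p this test can give is 0.0286. It shuffles the libraries freely, without regard to the mouse or the other treatment, so its p-values take no account of either. In the 50 kb before the cluster, a peak at chr17:48203063-48204849 was called over 1292 and 1270 bp with 25HC then PAM3 and over 0 bp in the 6 other libraries. It was chosen after its values were seen, and the share of all regions with such a pair was not computed.

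Other genes of the pathway were read from 7 lists, of which the lipid-associated macrophage list also holds Trem2 and Tyrobp. The counts are for the average effect of PAM3, where 5.94% of all tested genes rose and 5.88% fell. Of 17 other DAP12-associated receptors and their adaptors, 3 rose and 4 fell, with a median log2 difference of 0.05 beside −0.01 over all genes. Those that rose were Cd300e, a myeloid activating receptor, and Sirpb1a and Sirpb1b, DAP12-paired relatives of SIRPα whose near-identical copies make the assignment of reads between them uncertain. Cd300e had 4138 and 5059 bp untreated, 7672 and 8487 bp with PAM3, 5526 and 5286 bp with 25HC, and 7741 and 7573 bp with both (log2 0.62, limma adjusted p = 0.0148). Sirpb1a rose by log2 1.05 (limma adjusted p = 0.0153) and was highest with PAM3 alone, at 8134 and 11679 bp against 4005 and 5057 bp with 25HC then PAM3. The difference between those 2 groups did not pass (log2 −1.04, limma adjusted p = 0.106).

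The receptors that fell were Siglech, Klrk1, Pilrb1 and Pilrb2. Pilrb1 and Pilrb2, near-identical receptor genes, had limma adjusted p of 0.0325 and 0.0494, or 0.0539 and 0.0688 with the block, and kept their call in 0 of the 8 fits that leave out a library. Siglech, a DAP12-paired sialic acid lectin, had 4180 and 5193 bp untreated, 325 and 329 bp with PAM3, 3559 and 4120 bp with 25HC, and 1854 and 1804 bp with both (log2 −1.76, limma adjusted p = 0.00261). It is also a dendritic cell marker. It differed between 25HC then PAM3 and PAM3 by log2 1.49 (limma adjusted p = 0.0237, 0.0751 with the mouse as a block). Klrk1, the NKG2D receptor, was called over 826 to 1493 bp in the libraries without PAM3 and over 0 bp in all 4 with it (limma adjusted p = 0.0138).

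Of 20 kinases and adaptors downstream of DAP12, 1 rose and 1 fell (median 0.05). Syk, the kinase that docks on the DAP12 motif, rose by log2 0.49 (limma adjusted p = 0.0465, 0.0507 with the mouse as a block), with 13017 and 13106 bp untreated, 11645 and 18651 bp with PAM3, 9569 and 11033 bp with 25HC, and 17171 and 18949 bp with both. Bcl10, part of the complex that carries Syk signals to NF-κB, fell by 0.47 on the log2 scale (limma adjusted p = 0.0148). Of 10 brakes on the pathway, 0 rose and 2 fell (median −0.07): the ubiquitin ligase Cbl and the adaptor Sh2b3, with limma adjusted p of 0.0450 and 0.0297, or 0.0776 and 0.0505 with the block. Cblb, a related ligase, was lower with 25HC then PAM3, at 6543 and 8752 bp, than with PAM3, at 20994 and 31735 bp (log2 −1.71, limma adjusted p = 0.0414, 0.0741 with the block).

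Of 7 tested ligands and shedding proteases, 1 rose and 1 fell (median −0.16). Adam10, the protease that sheds the TREM-2 ectodomain, rose by log2 0.92 (limma adjusted p = 0.0175), from 4155 to 5889 bp in the libraries without PAM3 to 8406 to 13672 bp in those with it. Pglyrp1, a peptidoglycan-binding ligand of TREM-1, was lower in all 4 PAM3 libraries, at 758 to 1250 bp against 1514 to 2397 bp (log2 −0.81, limma adjusted p = 0.0344, 0.0647 with the block). The list of 20 genes of lipid-associated macrophages that depend on Trem2 includes the members Trem2 and Tyrobp themselves. Of the 20, 0 rose and 3 fell (median −0.11): Axl, a receptor for apoptotic cells, Clec7a, the β-glucan receptor dectin-1, and Cst7, a cystatin. Axl had 8500 to 8791 bp without PAM3 and 3809 to 5420 bp with it (log2 −0.89, limma adjusted p = 0.0256). Clec7a and Cst7 had limma adjusted p of 0.0323 and 0.0323, or 0.0533 and 0.0623 with the block.

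Of 8 tested osteoclast fusion genes, a programme that needs DAP12, 1 rose and 1 fell (median −0.09). Acp5, an acid phosphatase, rose by log2 0.54 (limma adjusted p = 0.0157), and Atp6v0d2, a proton pump subunit, was lower (log2 −0.84, limma adjusted p = 0.0304, 0.0590 with the block). Of the 9 tested neighbours of the cluster, 0 rose and 0 fell (2 at an unadjusted p under 0.05; median 0.09). Among them, Nfya, a subunit of the CCAAT-binding factor, had a log2 difference of 0.38 (limma adjusted p = 0.182) and Tfeb, the lysosomal regulator, −0.16 (0.333). Over the 7 lists, 18 genes were called for the average effect of PAM3, 9 of them also in the fit blocked by mouse, and 2 in each of the 8 fits that leave out a library, namely Siglech and Sirpb1a. Over all tested genes 11.8% were called for that effect. The 7 lists held 17, 20, 10, 7, 20, 8 and 9 tested genes, in the order described. The share called over the lists together was not computed. The 18 and the counts that follow therefore do not show whether the lists exceed all genes. For PAM3 against untreated 6 list genes were called (1 with the block), beside 3.87% of all tested genes. After 25HC there were 4 (0 with the block), beside 5.02%. For 25HC then PAM3 against PAM3 there were 2 (0 with the block), beside 1.3%.

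Over the 8 libraries, which share treatments and peak-calling depth, the genes on other chromosomes whose log2 called length was most like that of Trem1 were Bcl2a1b (Pearson's r of 0.987), Ccl7 (0.987) and Bcl2a1d (0.973). Bcl2a1b and Bcl2a1d are near-identical survival genes and Ccl7 encodes a monocyte chemokine. Ccl7 had 2382 and 1756 bp untreated, 3834 and 5183 bp with PAM3, 2961 and 2640 bp with 25HC, and 5187 and 6274 bp with both. The order of groups was that of Trem1, which the choice of Ccl7 by correlation over these same libraries favours. For Tyrobp the nearest were Vopp1 (0.990), Tgfb3 (0.989) and Bmpr1a (0.988), all 3 at 0 bp in PAM3 B. Vps25, among the 3 nearest to Trem2 (0.954), and Cers4, nearest to Treml4 (0.971), were at 0 bp in 25HC then PAM3 A. The nearest to Trem3 was Mybph (0.974) and to Treml2 Nicn1 (0.977). Among the members themselves, Treml4 and Trem2 had the highest correlation (0.894), and that of Trem1 with Tyrobp was −0.17.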

How the data were processed

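Acetylated H4 was mapped by ChIP-seq, 1 library per mouse and group. Per the submitters' processing notes, GSNAP aligned the reads to GRCm38 (mm10), and MACS2 2.1.0 called the broad peaks. No source used here states the control libraries, read filters or peak thresholds. The deposited lists give each peak's start and end, the authors' score (in 99.994% to 100.0% of peaks, 10 times −log10 q cut to a whole number), the authors' fold ratio, and deposited −log10 p and −log10 q values. They hold no counts, so no counting interval was computed.

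Called bp per window (RefSeq bodies on GRCm38.p6, without strand) were summed from the deposited peaks and converted to log2 of bp plus 500, less the library median. This understates changes of genes with little called length. Genes averaging at least 500 bp were kept: 14589 of 21887, all 6 members included. A limma 3.58.1 fit in R 4.3.3 (trend, robust) over the 4 groups had 4 residual degrees of freedom (3 once the mouse was a block; median prior 1.77). Adjusted p are Benjamini-Hochberg over all tested genes, called under 0.05. The fit was tried on simulated data with independent normal noise, no mouse effect and no missing peaks. That trial cannot tell how such features affect the calls made here. A 1 kb bin counted as called if at least 50% covered, and as gained or lost if both libraries of 1 group and neither of the other had it. Overlapping peaks of all libraries were merged into regions. Peaks matched between libraries had midpoints within 300 bp.

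Same letters are the same mouse per the labels. The deviations of same-mouse libraries from their group means correlated by −0.017 to 0.0304. The labels do not say that cultures were separate, so p-values measure the spread between these libraries. Comparisons share libraries.

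Members and lists were chosen with earlier results of these data known. Named genes were the 6 members, overlapping neighbours, the 4 of each list with the smallest p for the average PAM3 effect, and the 3 genes on other chromosomes most correlated with each member. Other list genes were named because they were called, after their values were seen. In the lists 2 symbols (Trem6l, Ncr3) had no match. Of 24 alternatives, 2 were added after seeing the data: only peaks of at least 500 bp, and the longest peaks kept to the same covered length.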

Additional observations from a re-analysis of the deposited data

Results flagged for a closer look

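The called length of Treml4 in 25HC then PAM3 A, 1949 bp, stood apart from the other 3 libraries with PAM3 (4218, 4542 and 4652 bp). The called length of Trem2 in 25HC B, 5576 bp, stood apart from the other 3 libraries without PAM3 (4258, 4336 and 4360 bp). Each of these sets mixes libraries with and without 25HC. A sample this far out turns up by chance in about 1 of 20 sets drawn from a single group. That rate need not hold for mixed sets.

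For Treml4, 25HC went with a higher called length at rest, by a mean of 1182.5 bp and in both mice, and with a lower one under PAM3, by a mean of −1513.5 bp and in both mice. The limma test of that difference gave −0.98 on the log2 scale with an adjusted p of 0.527.

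For Tyrobp, the mean change with PAM3 was −2342 bp without 25HC and 359.5 bp after it, each in the same direction in both mice. The limma test of the difference gave 0.64 on the log2 scale with an adjusted p of 0.626.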

How the results depend on the processing

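The average PAM3 effect on Trem1 was called in 20 of 23 alternatives. It was above 0 in 22 and ran from −1.14 in peaks with a −log10 q of 5 or more, to 2.29 with the longest peaks kept to one covered length. No member was called for it (0) when peaks were kept by a −log10 q of 5 or more, by q to the same covered length, or weighted by deposited fold. These 3 settings use per-peak values that hardly repeat between libraries of a group. Their rho was 0.087 to 0.171 for −log10 q and 0.103 to 0.203 for fold. Keeping the same number of peaks per library also ranks them by q, and there Trem1 kept its call (limma adjusted p = 0.0146). Whether the low repeat bears on the lost calls was not tested. With 2 kb on either side or the gene body alone, 2 members were called (Trem1 and Trem3), and without a library 1 to 2. For PAM3 against untreated the count fell from 1 to 0 with 100 bp added, no filter, no median subtraction, the same number of peaks, the same covered length, a −log10 q of 5 or more, 2 kb windows, the gene body alone, fold weighting, the 2 groups alone or the replicate block, and ranged from 0 to 1 without a library. For 25HC then PAM3 against 25HC it fell to 0 under the same settings other than 2 kb windows and the gene body alone, and also ranged from 0 to 1. The setting with the longest peaks kept was added after seeing the data. With it, 1 member (Trem1) was called for 25HC against untreated (limma adjusted p = 0.0186). For the average effect of 25HC it was 1 as well (Trem1, limma adjusted p = 0.0335). Without PAM3 A, 1 was called for 25HC then PAM3 against PAM3 (range 0 to 1).

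In peaks with a −log10 q of 5 or more the sign reversed for Trem1 (−0.091 for PAM3 against untreated, −2.19 after 25HC, −1.09 for 25HC then PAM3 against PAM3, −1.14 for average PAM3, −0.046 for average 25HC), Trem3 (−0.015, −1.80 and −0.91 for PAM3 without 25HC, after it and on average), Treml4 (−0.45 for 25HC, 0.36 for the difference of responses) and Tyrobp (0.72 for PAM3, 0.93 on average). Its cluster total differed by −3464.75 bp with PAM3 (exact permutation test, n = 4, p = 0.0286, the smallest that free shuffling can give) and −791.25 bp with 25HC. Without a library the PAM3 difference of the cluster ran from −697.75 to 1490.92 bp. Kept by q to the same covered length, Trem3 gave −0.72 after 25HC and −0.27 on average; weighted by fold it gave −0.18 after 25HC. The near-zero difference of Trem1 responses turned positive with 1000 bp added (0.012), 2 kb windows (0.03), the gene body (0.61), the same covered length (0.37) and fold weighting (0.13), and ran from −0.46 to 0.30 without a library. The average PAM3 effect on Treml2 ran from −0.017 to 0.071 without a library, and was 0.839 (limma adjusted p = 0.641) in peaks with a −log10 q of 5 or more. The cause of these changes was not tested.

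Over all genes, 564 were called for PAM3 against untreated (0 to 872 over the alternatives), 733 after 25HC (0 to 891), 1724 for the average PAM3 effect (0 to 1948), 190 for 25HC then PAM3 against PAM3 (0 to 434), 5 for 25HC against untreated (0 to 97), 10 for the average effect of 25HC (0 to 240) and 0 for the difference of responses (0 to 192). For the first 2, counts of at most 2 came with a −log10 q of 5 or more, the same covered length kept by q, and only the 2 groups compared. Where a library is left out, the lone library of its group is assumed to vary like the other groups. With pairing by mouse in the replicate block the counts were 168, 281, 1236, 0, 0, 0 and 0, and beyond those named beside their results the block changed no member's call. Read depth is unknown, so what it limits could not be measured.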
